A study of Mus musculus with 6 samples.

Results

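The genes described here are 9 markers and matrix products of hepatic stellate cells, Lrat, Reln, Des, Pdgfrb, Col1a1, Col1a2, Col3a1, Dcn and Ecm1. They were found in the deposited table by gene symbol, and all 9 of the 15092 genes listed there were present and passed the filter on low counts that left 13816 genes for testing. The table holds polyadenylated RNA of mouse liver from the C57BL/6J strain, in 3 libraries titled wild type (WT) and 3 titled as a knockout of the cryptochrome gene Cry1 (CRY1 KO). No treatment was given in either group, and the allele, whether the deletion covers the whole body, the animals' age and sex and the hour of collection do not appear in the labels. The titles share a prefix, NC, that is not explained. The labels call the cells hepatocytes without describing a sort. The 15 hepatocyte markers summed to between 98915 and 113231 CPM in a library (CPM, counts per 1000000 of the scaled library size), and markers of stellate cells, Kupffer cells and sinusoidal endothelium were measured beside them in all 6 libraries.

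Library totals lay between 79708703 and 91316332 estimated counts. The 9 genes had between 254 and 11881 estimated counts in a library. The Cry1 level did not separate the groups (WT 6.31 ± 1.32 CPM, CRY1 KO 6.19 ± 0.88 CPM, n = 3 each, ± SD), so the level of this transcript does not check the titles, and each direction below is that of the libraries labelled CRY1 KO. Nothing in the labels states that the libraries came from separate animals, and the p-values therefore measure only the spread between these libraries.

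Hepatic stellate cells lie between the hepatocytes and the sinusoidal endothelium. In the healthy liver they store vitamin A as retinyl esters in lipid droplets. After injury they lose these droplets, respond to platelet-derived growth factor and transforming growth factor β, and become myofibroblasts that deposit fibrillar collagen. Lrat encodes the enzyme that esterifies retinol, Reln the secreted glycoprotein reelin, Des the intermediate filament protein desmin, and Pdgfrb the β receptor for platelet-derived growth factor. Col1a1 and Col1a2 encode the chains of type I collagen and Col3a1 that of type III collagen. Decorin, from Dcn, is a small leucine-rich proteoglycan that binds collagen fibrils and transforming growth factor β, and Ecm1 encodes a secreted matrix glycoprotein.

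RefSeq promoter sequences (GRCm38.p6, a build other than the GRCm39 named for the deposited table) were at hand for 6 of the 9 genes, Lrat, Reln, Col1a2, Col3a1, Ecm1 and Des, and there was none for Dcn, Col1a1 and Pdgfrb. Those of 4 genes are shown, 250 bases upstream of the annotated start. Their highest library differed, WT 3 for Lrat and Reln and WT 1 for Col1a2 and Col3a1. Ecm1 (WT 3) and Des (WT 1) differed in the same way and are not shown. A link between these letters and the libraries was not tested. Capitals mark matches on either strand. The motifs searched were the E-box, spelled CACGTG, the GC box, spelled GGGCGG, the CCAAT box with its own letters, the TATA box, spelled TATAAA, the D-box, spelled TTATGTAA or TTACGTAA, and the CArG box.
Lrat: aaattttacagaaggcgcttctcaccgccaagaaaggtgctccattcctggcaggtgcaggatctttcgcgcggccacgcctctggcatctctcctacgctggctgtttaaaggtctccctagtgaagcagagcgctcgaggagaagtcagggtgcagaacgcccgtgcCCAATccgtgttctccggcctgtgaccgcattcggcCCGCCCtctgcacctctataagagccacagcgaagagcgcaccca
Reln: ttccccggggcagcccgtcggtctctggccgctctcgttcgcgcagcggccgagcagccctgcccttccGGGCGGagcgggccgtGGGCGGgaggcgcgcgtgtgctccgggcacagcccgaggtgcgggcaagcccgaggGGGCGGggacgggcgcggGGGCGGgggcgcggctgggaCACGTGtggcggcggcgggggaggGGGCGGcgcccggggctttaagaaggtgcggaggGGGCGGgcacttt
Col1a2: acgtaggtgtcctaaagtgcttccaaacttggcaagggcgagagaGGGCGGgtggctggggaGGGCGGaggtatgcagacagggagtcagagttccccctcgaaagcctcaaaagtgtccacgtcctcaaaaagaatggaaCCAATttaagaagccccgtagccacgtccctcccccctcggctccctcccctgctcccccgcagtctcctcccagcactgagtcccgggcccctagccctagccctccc
Col3a1: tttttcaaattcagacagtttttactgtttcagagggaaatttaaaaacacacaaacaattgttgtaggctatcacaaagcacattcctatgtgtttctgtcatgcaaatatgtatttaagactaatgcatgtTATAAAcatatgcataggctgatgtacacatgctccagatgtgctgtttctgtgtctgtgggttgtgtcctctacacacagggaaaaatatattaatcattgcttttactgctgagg
The windows are chr3:82903975-82904224 on the minus strand for Lrat, chr5:22344706-22344955 on the minus strand for Reln, chr6:4505368-4505617 on the plus strand for Col1a2 and chr1:45311288-45311537 on the plus strand for Col3a1. The E-box, the element that CLOCK and BMAL1 bind and that cryptochromes act on, was found in the Reln window, where it begins 71 bases before the start, and in no other of the 6. It occurred in 6.02% of 32851 promoter windows of the same length. GC boxes were present in 5 of the 6 windows, all but that of Col3a1, against 32.7% of all windows, and the Reln window held 6 of them. Guanine and cytosine made up 80% of the Reln window and 35.2% of the Col3a1 window, against a median of 52.4% over all windows. A CCAAT box was found in Lrat and Col1a2 (33.8% of all windows). The TATA box letters were found in Col3a1 and Ecm1 (12.4% of all windows), beginning 117 and 27 bases before the start. A D-box or CArG box was found in 0 of the 6 (0.931% and 1.47% of all windows). These matches describe letters in a window and do not show that a factor binds there.

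The first comparison asked whether the stellate and matrix genes differed between the libraries labelled CRY1 KO and WT. None of the 9 did so in the test over all genes. Called genes made up 1.70% of the 13816 tested (edgeR quasi-likelihood test, Benjamini-Hochberg adjusted p under 0.05), 1.06% as higher and 0.644% as lower in CRY1 KO, and 0 of the 9 were called. The count was also 0 by DESeq2 and by limma-voom, and 0 of the 9 had an unadjusted p under 0.05, where 20.7% of all genes did. The groups overlapped in each of the 9, while they did not overlap in 27.3% of all tested genes. The estimated difference was negative for 8 genes and positive for Col1a1, with a median log2 difference of -0.12, against -0.02 for all genes, of which 52.7% were negative. In samples that hold RNA of several liver cell types, fewer stellate cells in the sample and less RNA per stellate cell cannot be told apart.

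**Figure D1:**
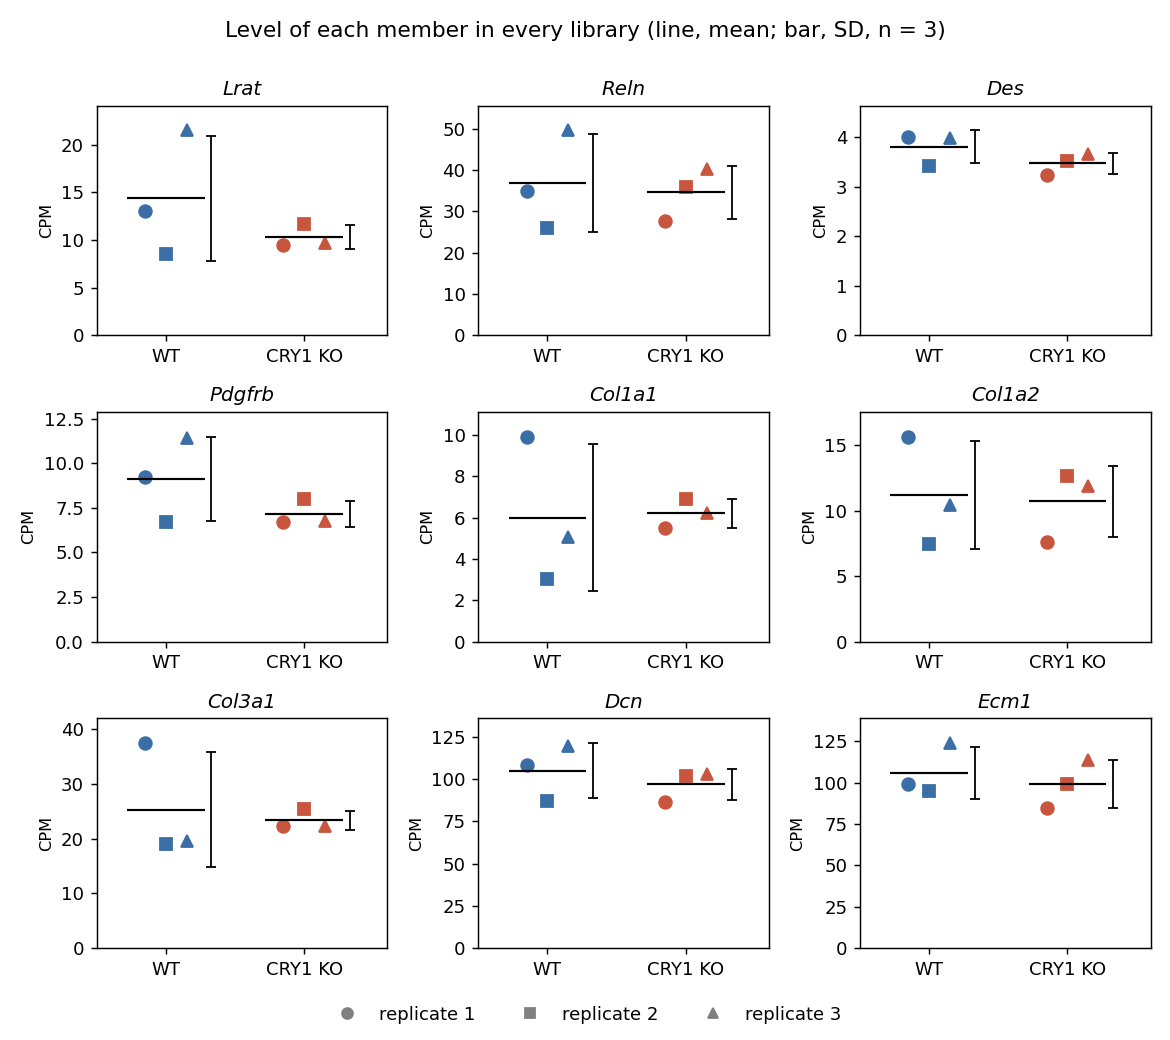
Level of each of the 9 genes in CPM (vertical axis from 0) in the 3 WT (blue) and 3 CRY1 KO (red) libraries, with the symbol giving the replicate number, the line the mean and the bar the SD. The groups overlap in every panel, and the WT library with the lowest value is WT 2 in all 9.

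Lrat stood at 13.1, 8.52 and 21.5 CPM in WT 1, 2 and 3 and at 9.50, 11.7 and 9.67 CPM in CRY1 KO 1, 2 and 3. The CRY1 KO libraries all lay between WT 2 and WT 1, and WT 3 was alone above 20. The means were 14.4 ± 6.58 and 10.3 ± 1.23 CPM (n = 3 each, ± SD). The log2 difference was thus -0.48, with SE 0.32 and an edgeR adjusted p = 0.436. The 95% interval allowed between 0.420-fold and 1.22-fold of the WT level. Without WT 3 the log2 difference was -0.07, so the size of this estimate rested on that library.

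Of the 28 tested genes that handle retinoids, 0 passed the test, 18 had negative differences and the median was -0.14 (-0.06 without WT 3). The smallest p belonged to Stra6l, which encodes a receptor for retinol-binding protein, at 187 ± 15.3 and 140.1 ± 9.12 CPM (n = 3 each, ± SD; log2 -0.41, edgeR adjusted p = 0.0711), and Rxrg, a retinoid X receptor gene, at 3.87 ± 0.43 and 2.33 ± 0.60 CPM (log2 -0.74, edgeR adjusted p = 0.124). In both the groups did not overlap, and Stra6l passed by DESeq2 (adjusted p = 0.00317) and without WT 1 (edgeR adjusted p = 0.0325). Of the 28, the groups did not overlap in 5, a share below the 27.3% of all tested genes. DESeq2 called 3 of the 28, and 10.9% of all genes to which it gave an adjusted p. Without WT 1 edgeR called 2 of the 28, and 565 genes in all against 235 with that library. Cyp26a1 and Cyp26b1, chosen after their values were seen, encode enzymes that clear retinoic acid. Cyp26a1 stood at 8.38, 4.94 and 34.1 CPM in WT 1, 2 and 3 and between 2.70 and 5.17 CPM in CRY1 KO. Cyp26b1 stood at 6.15, 1.83 and 13.5 CPM in WT, against between 2.05 and 4.84 CPM in CRY1 KO. Both were thus highest in WT 3, the library highest for Lrat, and neither was called (log2 -2.17 and -1.06, edgeR adjusted p = 0.248 and 0.474). They do not stand for the list. Of the 28, WT 3 was the highest WT library in 10 and WT 1 in 11 (38.2% and 34.3% of all tested genes).

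Reln stood at 34.8, 26.1 and 49.6 CPM in WT and at 27.6, 35.9 and 40.2 CPM in CRY1 KO. All CRY1 KO values lay inside the WT range. On the log2 scale it differed by -0.09 (SE 0.25, edgeR adjusted p = 0.871), with an interval from 0.621-fold to 1.42-fold. Its direction turned without WT 3 (0.19) and without CRY1 KO 1 (0.05). Reelin acts through the lipoprotein receptors of Vldlr and Lrp8 and the adaptor of Dab1. Vldlr stood between 0.605 and 2.40 CPM in WT, against between 0.307 and 1.84 CPM in CRY1 KO (log2 -0.88, edgeR adjusted p = 0.552). Dab2, a related adaptor gene, differed by -0.08 on the log2 scale (edgeR adjusted p = 0.658). Lrp8 was too low to be tested, and of the 4 tested genes of this list 0 passed.

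Pdgfrb stood at 9.26, 6.68 and 11.4 CPM in WT and at 6.71, 7.98 and 6.79 CPM in CRY1 KO. WT 1 and WT 3 were above all CRY1 KO libraries, and WT 2 was below them. Its p was the smallest of the 9 genes (log2 -0.35, SE 0.20, unadjusted p = 0.109, edgeR adjusted p = 0.343), and the interval ran from 0.576-fold to 1.07-fold. The log2 difference was -0.15 without WT 3 and -0.53 without WT 2. In the list of 6 receptors and ligands of platelet-derived growth factor 0 passed. Pdgfra, the α receptor gene, had a log2 difference of -0.46, and 5 of the 6 were negative.

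Of the 9 genes, Des had the narrowest range within each group. Des stood at 4.01, 3.43 and 3.98 CPM in WT and at 3.23, 3.52 and 3.66 CPM in CRY1 KO, so that the highest library was 1.17 times the lowest within WT and 1.13 times within CRY1 KO. The estimate on the log2 scale was -0.13 (SE 0.16, edgeR adjusted p = 0.676). Of 16 tested genes of intermediate filaments and the contractile apparatus 0 passed, with a median of 0.01. Acta2, the smooth muscle actin gene that marks activated stellate cells, was looked up for that role and stood at 1.49 CPM on average in WT against 1.52 CPM in CRY1 KO (log2 0.03). Tpm1, a tropomyosin gene, had a log2 difference of -0.32 (edgeR adjusted p = 0.200) and Mylk, for myosin light chain kinase, -0.24 (0.323), and in both the groups overlapped.

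Among 36 tested stellate cell markers, 6 of which are among the 9, 0 passed and 26 had negative differences, with a median of -0.22. Among the other 30 the median was also -0.22. The median of the 36 was -0.05 without WT 3 and -0.12 without WT 1. Pth1r, the parathyroid hormone receptor gene, stood in WT at 11.02 ± 1.498 CPM and in CRY1 KO at 7.12 ± 0.32 CPM (n = 3 each, ± SD; log2 -0.63, edgeR adjusted p = 0.0550). Ngfr, which encodes a neurotrophin receptor, stood at 4.28, 2.75 and 5.23 CPM in WT and at 1.85, 2.48 and 2.02 CPM in CRY1 KO (log2 -0.95, edgeR adjusted p = 0.0982). Both passed by DESeq2 (adjusted p = 0.00179 and 0.0168), which called 10.9% of the genes to which it gave an adjusted p, and Pth1r passed without WT 1 (edgeR adjusted p = 0.0191). The groups did not overlap in 4 of the 36, which were Pth1r, Ngfr, the transcription factor gene Lhx2 (log2 -0.64) and Angptl6 (log2 -0.35), the last 2 named after their values were seen. The share of 4 in 36 was below the 27.3% of all genes. An unadjusted edgeR p under 0.05 was found for 5 of the 36, against 20.7% of all genes. These were the same 4 and Cxcl12, which was also named after its values were seen and went the other way. The mean of Cxcl12 rose from 192 to 253 CPM, with overlapping groups (log2 0.40, edgeR unadjusted p = 0.0209, adjusted p = 0.164).

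**Figure D2:**
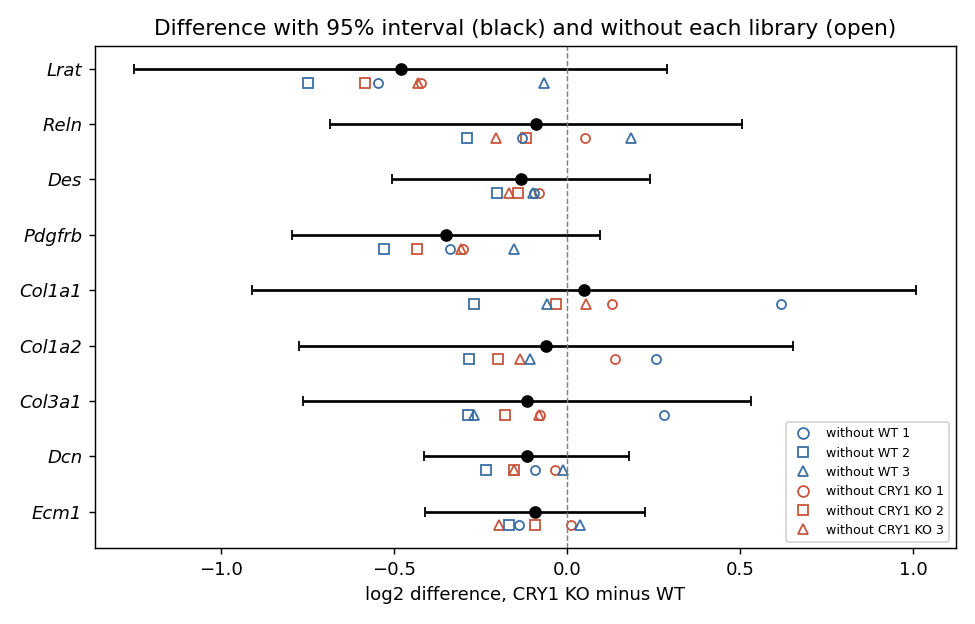
Log2 difference, CRY1 KO minus WT, of each gene with its 95% interval (black), and the same estimate with each library left out in turn (open symbols, blue for a WT and red for a CRY1 KO library). Every interval includes 0, and the open symbols for Col1a1 spread from -0.27 without WT 2 to 0.62 without WT 1.

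The fibrillar collagen genes varied more between WT libraries than between the groups. Col1a1 stood at 9.91, 3.02 and 5.05 CPM in WT 1, 2 and 3, a 3.28-fold range, and at 5.51, 6.89 and 6.20 CPM in CRY1 KO, a 1.25-fold range. The CRY1 KO libraries lay above WT 3 and below WT 1. Its log2 estimate was 0.05 (SE 0.40, edgeR adjusted p = 0.961), and its interval reached from 0.532-fold to 2.01-fold, the widest of the 9. Without WT 1 the difference was 0.62 (edgeR adjusted p = 0.185), and without WT 2 it was -0.27.

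Col1a2 stood at 15.6, 7.48 and 10.4 CPM in WT and at 7.62, 12.7 and 11.9 CPM in CRY1 KO (log2 -0.06, SE 0.30, edgeR adjusted p = 0.934). Col3a1 stood at 37.4, 18.9 and 19.5 CPM in WT and at 22.2, 25.4 and 22.4 CPM in CRY1 KO (log2 -0.12, SE 0.27, edgeR adjusted p = 0.844). WT 1 was the highest library and WT 2 the lowest for all of these collagen genes, and the direction of Col1a2 and Col3a1 turned without WT 1 (log2 0.26 and 0.28, edgeR adjusted p = 0.592 and 0.190). In that library markers of other cells were also high. The 14 Kupffer markers summed to 812 CPM in WT 1, between 392 and 547 CPM in the other WT libraries and between 368 and 382 CPM in CRY1 KO. The 7 red blood cell genes summed to 2979 CPM in WT 1, to 654 and 1024 CPM in the other WT libraries and to between 581 and 735 CPM in CRY1 KO. No marker of either list was at 0 in all 6 libraries, and their part in the collagen values was not tested.

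Ratios within a library do not depend on its scaling. Type I collagen is assembled from a pair of α1 chains and a single α2 chain. The ratio of Col1a2 to Col1a1 counts was 1.58, 2.48 and 2.07 in WT 1, 2 and 3, and the CRY1 KO libraries had 1.38, 1.84 and 1.92. Per kilobase of transcript it lay between 1.53 and 2.75, so the α2 value per kilobase was the higher in every library. The annotation that was counted is not given, so the lengths used may differ from it. The ratio describes RNA values and not protein chains. The ratio of Col3a1 to Col1a1 counts was 3.78, 6.26 and 3.86 for WT, while CRY1 KO had 4.04, 3.68 and 3.61, with WT 2 apart from the other 5. That of Col1a1 to Lrat was 0.758, 0.355 and 0.235 in WT, and stayed between 0.580 and 0.641 in CRY1 KO. None of the 3 log2 ratios separated the groups (differences of -0.24, -0.26 and 0.60, each with an exact two-sided permutation p = 0.4, adjusted p = 0.4 over the 3 ratios, and a p of 0.1 is the lowest this design of 3 against 3 can give).

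Of 13 tested fibrillar and fibril-associated collagen genes, 0 passed and the median was 0.00, which moved to 0.28 without WT 1 and to -0.25 without WT 2. Col5a3, a type V collagen chain, had the smallest p. It stood at 51.3, 50.3 and 52.3 CPM in WT and at 90.2, 73.1 and 65.0 CPM in CRY1 KO, with groups that did not overlap (log2 0.57, SE 0.12, edgeR adjusted p = 0.0550). It passed by DESeq2 (adjusted p = 0.00151), and unlike Col1a1 it was nearly level within WT. Of the 13, the groups did not overlap in 1, a share below the 27.3% of all tested genes. DESeq2 called 1 of the 13, and 10.9% of all genes to which it gave an adjusted p. Col14a1, a fibril-associated collagen, had a log2 difference of 0.23 and overlapping groups. WT 1 was the highest and WT 2 the lowest WT library in 9 of the 13, against 13.8% of all tested genes. Of the 13, 3 are Col1a1, Col1a2 and Col3a1 themselves. Of 24 tested genes that modify, fold or cross-link collagen 0 passed, 20 had negative differences and the median was -0.21 (-0.01 without WT 1). The smallest p were those of the lysyl oxidase relative Loxl4 (log2 -1.08, edgeR adjusted p = 0.147) and of Pcolce2, an enhancer of procollagen processing (log2 -0.89, edgeR adjusted p = 0.175), both under 3 CPM in every library. Serpinh1, the collagen chaperone gene, was chosen after its values were seen. It stood at 16.5, 7.16 and 8.40 CPM in WT and at 7.93, 13.3 and 10.7 CPM in CRY1 KO, so that WT 1 was the highest and WT 2 the lowest library, as for the collagens.

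Dcn stood at 108, 87.2 and 119 CPM in WT and at 86.2, 102 and 103 CPM in CRY1 KO. WT 1 and WT 3 were above every CRY1 KO library, while WT 2 was between CRY1 KO 1 and 2. The estimate on the log2 scale was -0.12 (SE 0.13, edgeR adjusted p = 0.647), with an interval of 0.751-fold to 1.13-fold, the narrowest of the 9 on the log2 scale. It was -0.01 without WT 3 and -0.23 without WT 2. Ecm1 stood at 98.9, 94.8 and 124 CPM in WT and at 84.8, 99.0 and 114 CPM in CRY1 KO (log2 -0.09, SE 0.14, edgeR adjusted p = 0.738). Its direction turned without WT 3 (0.036) and without CRY1 KO 1 (0.012). For these abundant genes the lower ends of the intervals were 0.751-fold and 0.752-fold, against 0.420-fold for Lrat.

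Among the other small leucine-rich proteoglycans, Omd, for osteomodulin, stood at 1.41, 0.951 and 2.09 CPM in WT and at 2.80, 3.70 and 2.93 CPM in CRY1 KO (log2 1.08, edgeR adjusted p = 0.0982), and Fmod, for fibromodulin, had a log2 difference of 0.84 with overlapping groups (edgeR adjusted p = 0.236). Of the 9 tested genes of that list 0 passed, and the median was 0.06. Of 22 tested matrix glycoproteins 0 passed, with a median of -0.07. Eln, for elastin, stood at 2.45 ± 0.46 and 1.48 ± 0.36 CPM (n = 3 each, ± SD; log2 -0.72, edgeR adjusted p = 0.169), and Emilin1, an elastic fibre glycoprotein, at 17.6 ± 3.38 and 12.8 ± 1.31 CPM (log2 -0.45, edgeR adjusted p = 0.147).

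Enzymes that cut the matrix and the pathway of transforming growth factor β held the only called genes of the stellate and matrix lists. Each of these lists held 1, and 1.70% of all tested genes were called. Mmp15, a membrane-bound metalloproteinase, rose from a WT mean of 37.3 ± 1.43 to 54.3 ± 1.73 CPM (n = 3 each, ± SD; log2 0.54, SE 0.08, edgeR adjusted p = 0.0251), higher in all 3 CRY1 KO libraries than in any WT library. It was the called gene among 15 tested proteases and inhibitors, whose median was -0.08 (0.34 without WT 1). In 5 of the 15 the groups did not overlap, against 27.3% of all tested genes. Skil, which encodes the SMAD corepressor SnoN, fell from 10.5 ± 0.54 to 6.38 ± 0.82 CPM (n = 3 each, ± SD; log2 -0.72, SE 0.13, edgeR adjusted p = 0.0424). It was the called gene among 23 tested in the transforming growth factor β pathway, of which 2 had negative differences and the median was 0.19. Both calls were lost without scaling beyond the library total (edgeR adjusted p = 0.0713 for Mmp15 and 0.0779 for Skil) and without WT 2 (0.0946 and 0.142) or any single CRY1 KO library (0.0929 to 0.112 and 0.113 to 0.156), and limma-voom gave 0.0508 for Skil.

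The second comparison was between libraries. WT 2 was the lowest WT library for all 9 genes, against 30.1% of all tested genes. The highest of the 6 libraries was a WT library for all 9, against 57.6% of all genes. WT 1 held the highest value for Col1a1, Col1a2, Col3a1 and Des, and WT 3 for Lrat, Reln, Pdgfrb, Dcn and Ecm1. In 6 of the 9, Lrat, Reln, Pdgfrb and the collagens, all CRY1 KO libraries lay inside the WT range, against 20.0% of all genes. The WT range was wider than the CRY1 KO range in 8 of the 9, Ecm1 being the exception, and in 63.9% of all genes.

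**Figure D3:**
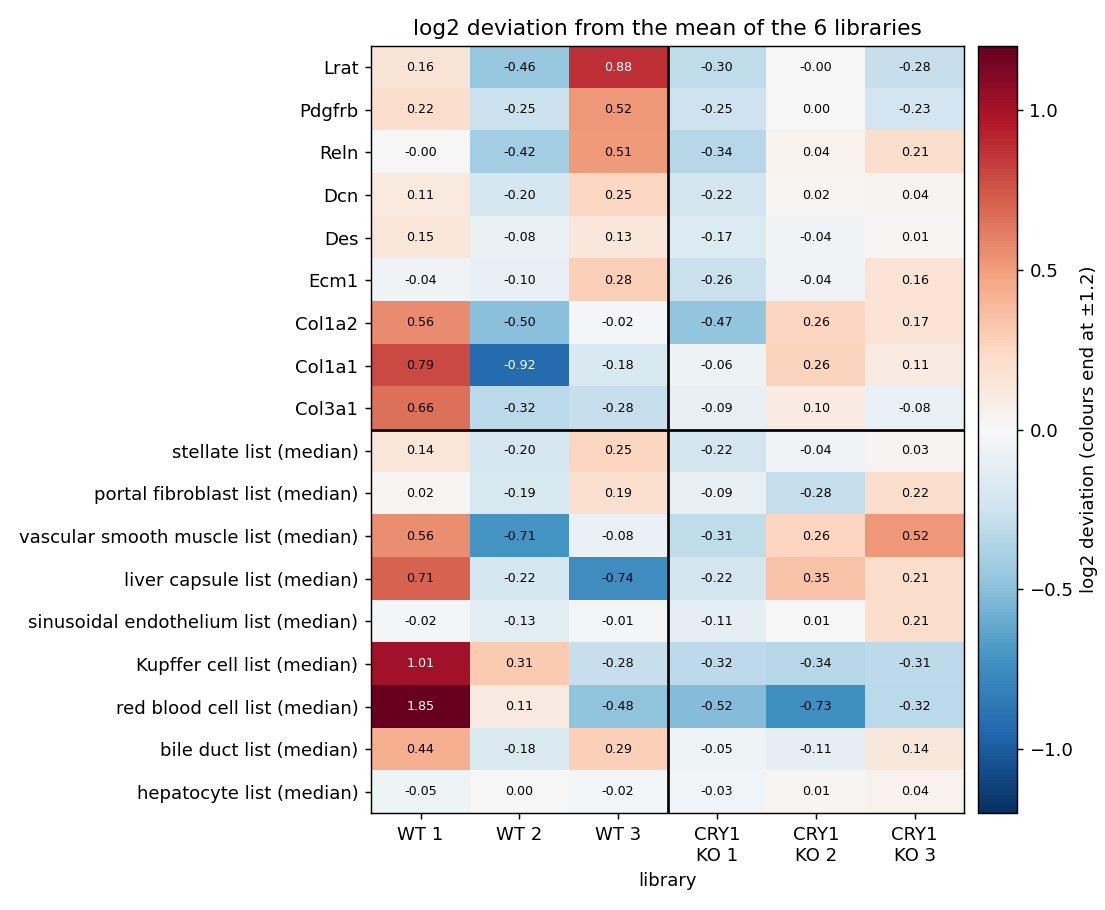
Log2 deviation of each gene (above the line) from its mean over the 6 libraries, and the median deviation of the cell type marker lists (below the line); red is higher and blue is lower. WT 1 is high for the collagens (0.56 to 0.79) and for Kupffer (1.01) and red blood cell (1.85) markers, and WT 3 is high for Lrat (0.88), Pdgfrb (0.52) and Reln (0.51).

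The collagens and the other 6 genes varied partly apart across the 6 libraries. Among Lrat, Reln, Des, Pdgfrb, Dcn and Ecm1 the Pearson correlation of log2 CPM over the 15 pairs had a median of 0.83 and ran from 0.62 to 0.98, and among the collagens the 3 pairs lay between 0.79 and 0.88. Between the groups the 18 pairs had a median of 0.37 and ran from -0.19 to 0.73, so the ranges overlapped. Lrat and Pdgfrb put the 6 libraries in the same order (Pearson r = 0.98, exact permutation p = 0.00278, adjusted p = 0.05 over 36 pairs; Spearman rho = 1, with the same p), and r was 0.99 without WT 2 and WT 3, the libraries farthest from the median of Lrat. Col1a1 and Col3a1 also shared their order (r = 0.88, exact permutation p = 0.00278, adjusted p = 0.05; rho = 1, with the same p; r = 0.94 without WT 1 and WT 2). A p of 0.00278 is the smallest that pairings of 6 libraries give here. Lrat and Col1a1 had r = 0.27 (exact permutation p = 0.6, adjusted p = 0.7; rho = 0.43, exact permutation p = 0.419, adjusted p = 0.521), and r became 0.93 without WT 2 and WT 3. Without these libraries r also rose from 0.06 to 0.92 for Lrat with Col3a1 and from 0.39 to 0.83 with Col1a2, while it dropped from 0.82 to 0.23 for Lrat with Reln and from 0.69 to 0.08 with Ecm1. The separation of Lrat from the collagens, and its likeness to Reln and Ecm1, were thus lost without WT 2 and WT 3 together. Leaving out both at once does not tell their parts from each other. WT 2 was below the mean of the 6 libraries for Lrat (log2 deviation -0.46) and for the collagens (-0.92 to -0.32). WT 3 was above that mean for Lrat (0.88) and below it for the collagens (-0.28 to -0.02). Each group of genotypes held 3 libraries, too few for a correlation of its own, and all genes share the depth and scaling of their library.

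**Figure D4:**
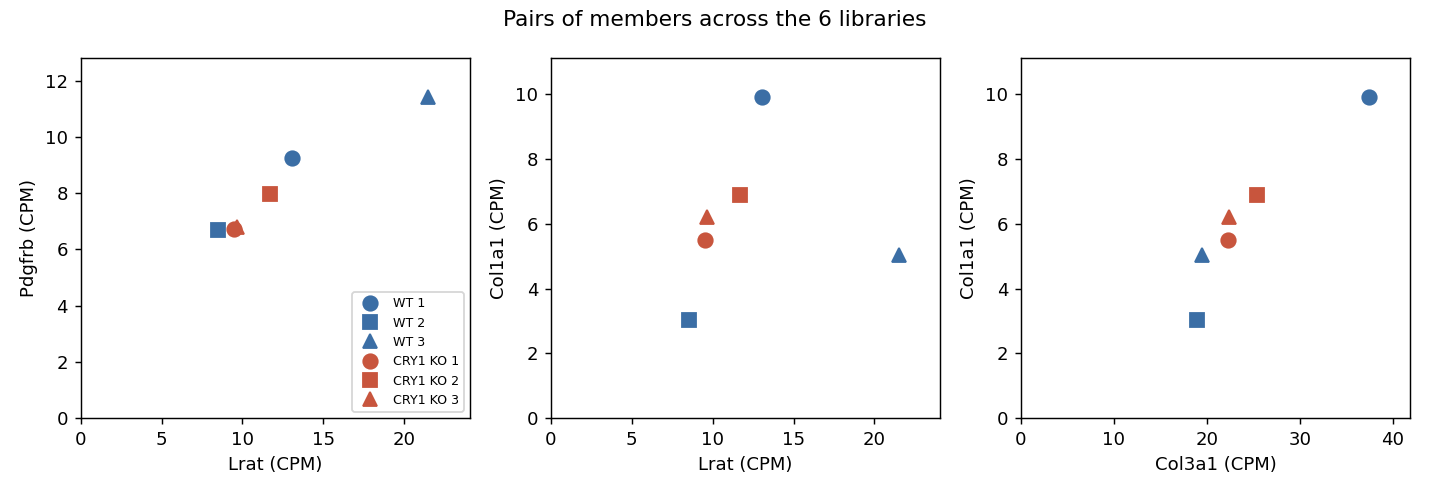
Levels in CPM of Pdgfrb against Lrat, Col1a1 against Lrat and Col1a1 against Col3a1, 1 point per library (blue WT, red CRY1 KO, symbol by replicate number). WT 3 lies at the top of the first panel and falls away to the right in the second, at 21.5 CPM of Lrat and 5.05 CPM of Col1a1.

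The wider lists followed the same libraries in part. Of the 36 stellate markers, WT 2 was the lowest WT library in 30 and WT 3 the highest in 24. Over all tested genes these shares were 30.1% and 38.2%. Of the collagen list, WT 2 was the lowest in 12 of 13 and WT 1 the highest in 10 (30.1% and 34.3% of all tested genes). These counts include 6 of the 9 genes in the stellate list and 3 in the collagen list, so they are not independent of the pattern above. The pattern was not particular to these lists. WT 2 was also the lowest WT library in 13 of 16 basement membrane genes and 18 of 23 of the transforming growth factor β pathway. The same held for 9 of 15 sinusoidal endothelial markers, but for 1 of 15 hepatocyte and 0 of 14 Kupffer markers. WT 3 was the highest in 11 of the 16 basement membrane genes and 9 of the 15 endothelial markers. Over the 6 libraries, 17 of the 30 stellate markers outside the 9 correlated more closely with Lrat than with the mean of the collagens, and 13 the other way. Of the collagen list outside the 9, 2 of 10 were closer to Lrat, and of the collagen processing list 3 of 24. Genes on both sides were picked after their values were seen. Among stellate markers, Cygb, for cytoglobin, had r = 0.93 with Lrat and 0.17 with the collagen mean, while Steap4, a metalloreductase gene, had 0.06 and 0.88. Among collagen genes, Col5a2 had -0.04 with Lrat and 0.95 with the collagen mean, while Col5a1 had 0.89 and 0.64. Among cross-linking enzymes, Loxl2 had 0.20 and 0.98, while Loxl3 had 0.81 and 0.26. Portal fibroblast markers summed to between 41.8 and 59.1 CPM in WT, against between 45.6 and 58.4 CPM in CRY1 KO, smooth muscle markers to between 67.6 and 86.3 and between 62.1 and 67 CPM, and liver capsule markers to between 5.83 and 11.6 and between 6.61 and 10.6 CPM. In the 3 lists 0 genes were called, and their part in the values of the 9 genes was not tested.

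Outside the lists, 11198 genes of at least 1 CPM were ranked by the correlation of log2 CPM with the mean of the 3 collagens over the 6 libraries. The 5 most alike were Ifi203 (r = 0.99), Pstpip2 (0.99), Sema6d (0.98), Fmn1 (0.97) and Sfxn2 (0.97). Fmn1 had a range like that of Col1a1, at 9.87, 2.49 and 4.87 CPM in WT, against between 5.005 and 6.48 CPM in CRY1 KO. The 5 most like Lrat were Fam171b (0.98), Nrp1 (0.98), Dixdc1 (0.97), Tbc1d5 (0.97) and Mapkbp1 (0.97). Dixdc1 stood at 12.5, 9.80 and 18.9 CPM in WT, against between 11.025 and 11.6 CPM in CRY1 KO. With 6 points and this many genes, such values are found by search and describe likeness in these libraries only.

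Levels of different genes were compared as CPM per kilobase of the principal transcript (GENCODE M21 lengths). Dcn was the most abundant of the 9, with a median over the 6 libraries of 58.1 (range 49.0 to 67.9), followed by Ecm1 at 52.1 (44.6 to 65.2), and these ranges overlapped. Col3a1 followed at 4.01 (3.40 to 6.73) and Reln at 3.02 (2.23 to 4.24), with overlapping ranges. Col1a2 at 2.09 (1.40 to 2.92), Lrat at 1.998 (1.59 to 4.02), Pdgfrb at 1.37 (1.24 to 2.11), Des at 1.19 (1.07 to 1.32) and Col1a1 at 0.987 (0.509 to 1.67) came last, each overlapping its neighbour in the order. Ecm1 and Col3a1 were the only neighbours whose ranges were apart. The lowest Ecm1 value was above the highest Col3a1 value in these libraries.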

How the data were processed

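Polyadenylated RNA of 6 liver libraries was analysed, grouped by title into 3 WT and 3 CRY1 KO. The submitters' processing notes name Trim Galore 0.6.7, HISAT2 2.2.1, StringTie 2.1.7, limma 3.42.2 and the build GRCm39, without order or settings. The authors' deposited values are whole numbers, taken here as estimated counts and needing no rounding. The value 3 was more frequent than 1, 2 or 4 in each library, so 1 unit may not stand for 1 fragment, and low values are less certain. Which annotation was counted, and whether strand was used, is not given in the sources used here.

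With edgeR 4.0.16, genes were kept by filterByExpr at a minimum count of 10 and a minimum total of 15, scaled by TMM and tested with the robust quasi-likelihood test, adjusted by Benjamini-Hochberg over all tested genes at 0.05. CPM are relative to the scaled library size. SE is the log2 difference over the square root of F, and 95% intervals use the test's degrees of freedom. Correlations used log2 CPM with a prior count of 2. Ratios were compared by exact permutation (scipy 1.17.1). The procedure was tested on simulated data. DESeq2 1.42.0, limma-voom (limma 3.58.1), other scalings, no filter, the replicate number as a block and leaving out each library were alternatives.

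The 9 genes and 21 lists were chosen with earlier results of these data known. The naming rule took the 9 genes, up to 4 called genes of each list or else the 2 with the smallest p, and the 5 genes outside the lists most like the collagens and Lrat. Other genes were named after their values were seen. Of 305 listed symbols 296 were in the table.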

Additional observations from a re-analysis of the deposited data

How the results depend on the processing

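The count of 0 called among the 9 genes was the same under all 12 alternatives. The count over all genes, 235, was 1322 by DESeq2, 113 without scaling beyond the library total and 94 with the replicate number as a block, and ran from 17 (without WT 2) to 844 (without WT 3) over the libraries left out. Same-numbered libraries did not deviate together (correlations between -0.07 and 0.07), WT 1 correlated best with CRY1 KO 2, and the block changed 0 calls among the 9, while the calls of Mmp15, Skil and Hnf4a were lost with it (edgeR adjusted p = 0.0713, 0.0893 and 0.0843). The median log2 difference of the 9 ran from -0.28 to -0.03. Leaving out a library turned the direction of 5 genes, none of them called: Reln ran from -0.29 to 0.19, Col1a1 from -0.27 to 0.62, Col1a2 from -0.28 to 0.26, Col3a1 from -0.29 to 0.28 and Ecm1 from -0.20 to 0.036. Lrat, Pdgfrb, Des and Dcn kept a negative difference under all 12, with Lrat between -0.75 and -0.07. The 3 ratios kept their direction. Of 252 list medians recomputed 7 moved beyond the spread between libraries, and of 252 list counts 42 moved by over 1.5 times. With 3 libraries a group the 95% interval of Col1a1 did not exclude a level between 0.532-fold and 2.01-fold of WT. In data simulated for this design, 29.9% of changes of 1.5-fold and 77.6% of changes of 2-fold were called. Each simulated gene had the spread typical of its level, and a wider spread of single genes was not simulated. These shares therefore do not apply to genes such as Col1a1 (SE 0.40) and Lrat (SE 0.32).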

Other observations

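Basement membrane genes were measured beside the fibrillar collagens. Of 16 tested 0 were called, with a median log2 difference of 0.14. Col18a1, the source of endostatin, was the most abundant in CPM, in WT at 849 ± 106 CPM and in CRY1 KO at 1035 ± 57.4 CPM (n = 3 each, ± SD), with groups that did not overlap (log2 0.28, edgeR adjusted p = 0.213). Col4a5 stood at 1.13 ± 0.26 and 2.61 ± 1.11 CPM (log2 1.21, edgeR adjusted p = 0.102). The highest WT value was in WT 3 for 11 of the 16 and in WT 1 for 5 (38.2% and 34.3% of all tested genes). Ccn2, a target of transforming growth factor β named after its values were seen, averaged 7.53 CPM in WT against 17.3 CPM in CRY1 KO with overlapping groups.

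Markers of other liver cells were summarised in the same way. Of 15 hepatocyte markers 1 was called, Hnf4a, a hepatocyte transcription factor gene, which rose from 411 ± 63.7 to 680.1 ± 58.3 CPM (n = 3 each, ± SD; log2 0.73, edgeR adjusted p = 0.0389). Of the 10 genes in the bile duct list 1 was called, the keratin gene Krt18, which fell from 193 ± 25 to 117 ± 7.34 CPM (log2 -0.72, edgeR adjusted p = 0.0286). Both calls, of Hnf4a and Krt18, were lost without WT 2 (0.168 and 0.102) or any single CRY1 KO library. In the bile duct list 6 of the 10 had negative differences and the median was -0.06. The Krt18 call therefore does not show a change in bile duct cells. Over all tested genes edgeR called 1.70%, and DESeq2 called 10.9% of the genes to which it gave an adjusted p. Without WT 3 edgeR called 844 genes, against 235 with all libraries. Of 14 Kupffer markers 0 were called by edgeR, 6 by DESeq2 and 9 by edgeR without WT 3. In that list 13 were negative (median -0.66, and -0.36 without WT 1), 8 had an unadjusted p under 0.05 (20.7% of all genes) and in 8 the groups did not overlap (27.3% of all genes). Of 15 sinusoidal endothelial markers 0 were called (median 0.06). Of 6 red blood cell genes 0 were called (median -1.40, and -0.33 without WT 1), and of 8 T and NK cell genes 0 (median -0.72, and -0.43 with no filter on low counts and -0.44 by DESeq2). The portal fibroblast, smooth muscle and capsule lists had medians of -0.02, 0.01 and 0.03.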
